A study of Mus musculus with 18 samples.

Results

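The expression of 10 genes of the p53 response was followed through the first days of acute myocardial infarction (AMI). They were Trp53, which encodes p53, its classical targets Cdkn1a, Mdm2, Ccng1, Btg2, Trp53inp1 and Phlda3, and the stress genes Gadd45a, Gadd45b and Gadd45g. The genes were listed by name, with earlier results of these data known, and all 10 were found among the 24419 gene symbols measured. Each of the 10 had an FPKM (fragments mapped per kilobase of transcript and scaled to the size of the library) of at least 1 in every mouse, so all were among the 13333 genes tested.

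The study sequenced polyA RNA from heart tissue of 18 C57BL/6 mice aged 8 weeks, with 3 mice in each of 6 groups. In the AMI groups the proximal left anterior descending coronary artery was ligated and the infarcted left ventricle was taken after 10 min, 1 h, 6 h, 24 h or 72 h. The group labelled as control is named sham in the study, and what their operation involved is not given in the sources used here. All mice were male and anaesthetised with sodium pentobarbital, and none of these groups carried a modified allele or received a further agent. Each library came from a piece of tissue with many cell types, so a change of RNA per cell and a change in the number of cells of a type cannot be told apart.

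p53 is a transcription factor that is kept low by the ubiquitin ligase Mdm2, itself a p53 target, and is stabilised by DNA damage and other stresses. Its targets halt the cell cycle, as p21 (Cdkn1a) does, or promote repair, metabolic adjustment or cell death. Several targets, among them Cdkn1a, Btg2 and the GADD45 genes, are also switched on without p53 by growth factor, cytokine and stress kinase signalling. In the heart most of the RNA comes from cardiomyocytes, which rarely divide, and an infarct is first entered by neutrophils and then by macrophages and proliferating fibroblasts.

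The promoters of the 5 genes that were called higher at 6 h are shown first because they differ in the motifs they hold. Cdkn1a has another entry further downstream, and only the upstream one is shown. The sequences are those of RefSeq on GRCm38.p6, which has the coordinates of mm10, 250 bases up to the RefSeq transcription start, 5′ to 3′ on the strand of the gene. These starts differ from the ends of the GENCODE gene positions given below. The last bases shown for Cdkn1a, Gadd45a and Gadd45b lie inside the genes as positioned there, among them the marked half-site of Gadd45a. Capitals mark the p53 half-site consensus in Cdkn1a and Gadd45a, the CRE (TGACGTCA) in Btg2 and the TATA motif (TATAAA) in Gadd45b and Gadd45g, and no marked match overlaps another.
Cdkn1a, chr17:29090729-29090978, plus strand: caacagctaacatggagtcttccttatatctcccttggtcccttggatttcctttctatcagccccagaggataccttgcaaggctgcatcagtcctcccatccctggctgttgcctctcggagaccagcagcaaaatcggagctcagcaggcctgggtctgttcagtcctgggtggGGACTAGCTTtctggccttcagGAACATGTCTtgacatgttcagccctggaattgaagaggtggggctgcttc
Gadd45a, chr6:67037408-67037657, minus strand: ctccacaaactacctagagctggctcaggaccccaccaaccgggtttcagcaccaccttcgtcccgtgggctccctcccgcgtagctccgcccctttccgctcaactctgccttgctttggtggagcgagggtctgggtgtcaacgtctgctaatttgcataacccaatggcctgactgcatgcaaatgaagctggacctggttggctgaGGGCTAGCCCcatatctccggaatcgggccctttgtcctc
Gadd45b, chr10:80929841-80930090, plus strand: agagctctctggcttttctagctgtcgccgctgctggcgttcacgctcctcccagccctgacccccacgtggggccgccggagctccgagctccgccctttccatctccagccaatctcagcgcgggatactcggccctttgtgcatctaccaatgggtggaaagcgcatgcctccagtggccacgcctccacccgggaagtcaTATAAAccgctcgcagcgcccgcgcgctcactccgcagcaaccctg
Gadd45g, chr13:51846425-51846674, plus strand: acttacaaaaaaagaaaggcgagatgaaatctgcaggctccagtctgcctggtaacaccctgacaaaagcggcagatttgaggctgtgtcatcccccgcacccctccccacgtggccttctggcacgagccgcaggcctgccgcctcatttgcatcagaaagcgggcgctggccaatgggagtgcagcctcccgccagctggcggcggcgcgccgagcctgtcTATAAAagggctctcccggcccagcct
Btg2, chr1:134079156-134079405, minus strand: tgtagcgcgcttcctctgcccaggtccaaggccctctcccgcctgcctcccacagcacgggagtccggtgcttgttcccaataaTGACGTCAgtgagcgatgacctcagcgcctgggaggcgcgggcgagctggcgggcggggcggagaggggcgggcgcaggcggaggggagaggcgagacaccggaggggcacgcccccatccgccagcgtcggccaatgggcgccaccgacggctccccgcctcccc

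Both strands were searched for 8 motifs by letters alone, and 9 of the 10 genes had a promoter entry (Trp53inp1 had none). The p53 half-site stood in the entries of Trp53, Mdm2, Ccng1 and Gadd45a, and in the upstream entry of Cdkn1a at -73 to -64 and at -51 to -42 from the start. It stood in 7.13% of 32851 mouse promoters of the same length. The downstream entry of Cdkn1a (chr17:29093519-29093768, plus strand) held no p53 half-site, and GGGCGG was the only motif found there. The CRE of Btg2, at -166 to -159, was the only match of that motif among these entries, against 1.55% of all promoters. TATAAA stood at -46 to -41 in Gadd45b, at -27 to -22 in Gadd45g and, on the reverse strand, at -248 to -243 in Trp53, against 12.4% of all promoters. None of the entries held the letters of an AP-1 site (TGANTCA, 6.75% of all promoters), a CArG box (1.47%) or an NF-kappaB site (3.9%). CCAAT and GGGCGG, found in 33.8% and 32.7% of all promoters, were also searched and are not marked. A match of letters describes the sequence, and binding was not measured here.

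The libraries had FPKM sums of 542418 to 600467, and their relative depth, estimated from the steps of the lowest FPKM, ran from 0.814 to 1.32 of that of the first sham mouse. Cardiomyocyte markers (Myh6, Tnnt2, Actn2, Ryr2 and Pln) were detected in every group, with a summed FPKM of 30780 to 33120 in sham and 12930 to 15620 at 72 h. Neutrophil markers differed between mice of 1 group, with summed FPKM of 1002, 117.1 and 376.9 at 6 h and 210.5, 42.89 and 967.7 at 24 h in mice 1, 2 and 3, against 2.317 to 5.004 in sham. Macrophage markers summed to 268.6 to 312.4 FPKM in sham and 4062 to 5389 at 72 h, and fibroblast markers to 227.8 to 255.9 and 3649 to 4780. Over all tested genes the median log2 difference from sham was -0.083, 0.13 and 0.29 at 6 h, 24 h and 72 h, and the differences below are to be read against that shift. With the FPKM rescaled by median of ratios, genes called higher and lower numbered 1922 and 1586 at 6 h in place of 1543 and 2233, 2460 and 2426 at 24 h in place of 3496 and 1516, and 5208 and 4792 at 72 h in place of 7081 and 3226.

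In sham hearts the 10 genes spanned a wide range of levels per transcript length. Ccng1 was the most abundant at 220 ± 16.6 FPKM (SD, n = 3), at the 97.2 percentile of the tested genes. Gadd45a (24.7 ± 1.53), Gadd45g (18.7 ± 2.49), Btg2 (14.9 ± 0.0753), Gadd45b (11.8 ± 1.73) and Cdkn1a (10.1 ± 1.21) lay between the 58.1 and 77.5 percentiles. Trp53inp1, at 8.33 ± 0.541 FPKM, stood near the middle of the tested genes. Phlda3 (4.01 ± 0.569), Trp53 (3.88 ± 0.739) and Mdm2 (3.03 ± 0.311) were the lowest, and the mice overlapped between neighbours in that order.

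**Figure D1:**
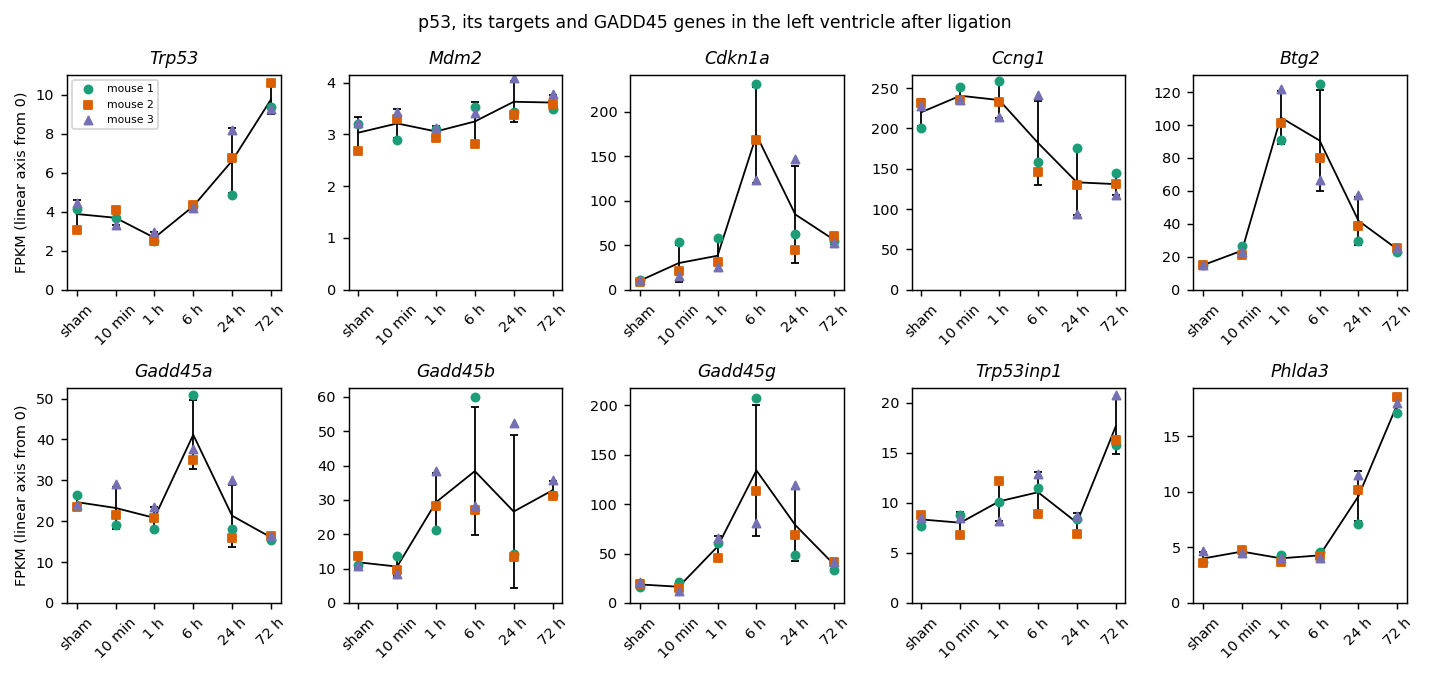
FPKM of each gene in each of the 18 mice (points, by mouse number), with the group mean (line) and SD (bars, n = 3), on linear axes that start at 0. Btg2 and the GADD45 genes other than Gadd45a rose by 1 h, Cdkn1a was highest at 6 h, and Trp53 and Phlda3 were highest at 72 h.

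Which of these genes had changed at each time was asked with limma on log2(FPKM + 1), each AMI group against sham, with a gene called at an adjusted p under 0.05. At 10 min 1 of the 10 was called higher, where 0.248% of all tested genes were, and none was called lower (0.0978%). At 1 h 4 were higher (background 0.669%) and none was lower (0.0526%). At 6 h 5 were higher (11.6%) and none lower (16.8%), at 24 h 5 were higher (26.2%) and 1 lower (11.4%), and at 72 h 7 were higher (53.1%) and 2 lower (24.2%). With a ratio of mean FPKM over 2 asked for as well, the numbers called higher were 0, 4, 4, 4 and 6 in time order, against 0.0978%, 0.526%, 5.72%, 10.3% and 26.4% of all genes. The share of the 10 called higher was far above that of all genes at 1 h and closer to it at 72 h. As the 10 were chosen with earlier results of these data known, this comparison is a description and not an independent test. The median log2 fold change of the 10 was 0.0068, 0.17, 0.53, 0.73 and 1.00 from 10 min to 72 h, beside 0.017, -0.015, -0.083, 0.13 and 0.29 for all genes tested. These shares of all genes themselves moved with single mice, and without 1 of the sham mice 1262 to 1646 genes were called higher at 24 h in place of 3496, and 366 to 468 lower in place of 1516. At an unadjusted p under 0.05 the numbers of the 10 that were lower than sham were 0 at 10 min, 2 at 1 h and 0 at 6 h, beside 6%, 7.06% and 26.1% of all genes. In time order, 3, 4, 6, 6 and 8 of the 10 had all AMI mice above all sham mice. Of all genes 12.2%, 7.41%, 18.6%, 39.3% and 55.1% did so. All AMI mice lay below all sham mice for 0, 2, 0, 1 and 2 of the 10, beside 8.15%, 10.9%, 30.2%, 18.9% and 25.4% of all genes. Such separation, given below for single genes, was thus common at 24 h and 72 h.

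**Figure D2:**
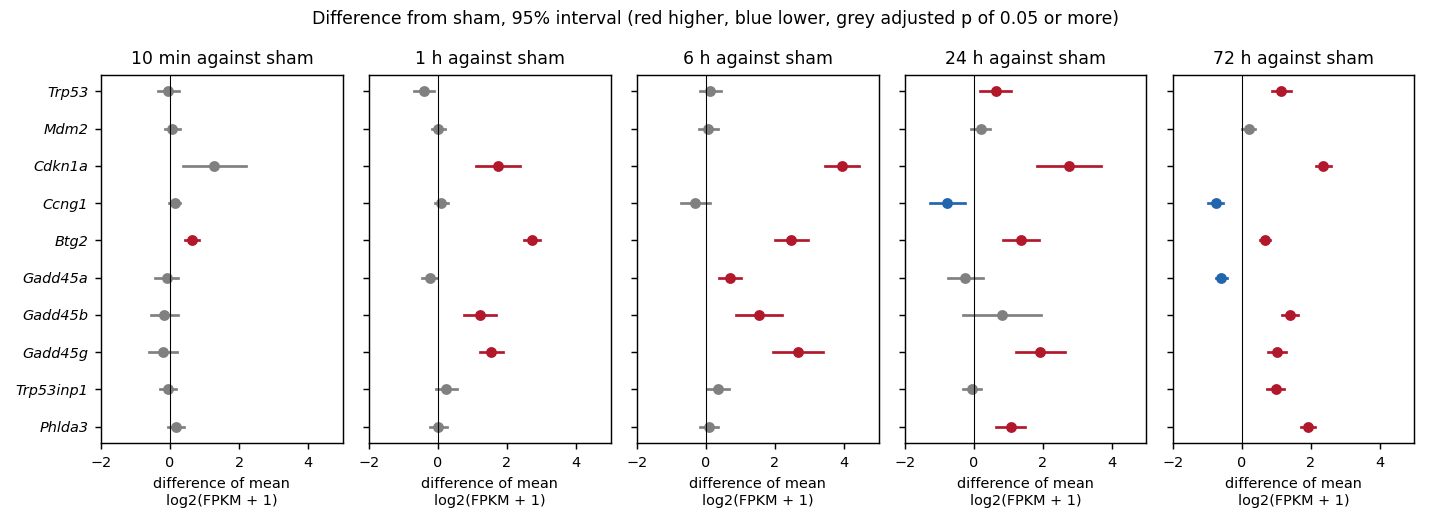
Difference in mean log2(FPKM + 1) from sham for each gene at each time, with the 95% interval of limma (n = 3 against 3), red where called higher, blue where called lower and grey otherwise. Cdkn1a reached 3.93 at 6 h, and the interval of Mdm2 included 0 at each of the 5 times.

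Btg2, an antiproliferative gene that is also an immediate early gene, was the only one of the 10 called at 10 min. Its FPKM was 14.9, 14.8 and 15.0 in the sham mice, 26.8, 21.2 and 23.1 at 10 min and 90.6, 101 and 122 at 1 h. The 6 h mice had 125, 79.9 and 66.7, the 24 h mice 29.4, 38.4 and 57.7 and the 72 h mice 23.2, 25.4 and 25.1. Every AMI mouse lay above every sham mouse, and the highest levels were those of 1 h and 6 h, which overlapped. The log2 difference from sham was 0.63 (SE 0.085, adjusted p = 0.0403) at 10 min, a 1.59-fold level, and 2.72 (SE 0.10, adjusted p = 1.28e-05) at 1 h, a 7.02-fold level. It was 2.47 at 6 h (adjusted p = 0.000634), 1.38 at 24 h (adjusted p = 0.00671) and 0.68 at 72 h (adjusted p = 1.57e-05). The call at 10 min was lost without any 1 of the sham mice or without mouse 3 of 10 min, at adjusted p between 0.101 and 0.152, and 5 other settings also lost it. Btg2, on chromosome 1 at 134075170 to 134079120 of mm10 on the minus strand, has the promoter with the CRE shown above.

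Cdkn1a, which encodes the cyclin-dependent kinase inhibitor p21, had the largest change of the 10. The sham mice had 10.3, 8.82 and 11.2 FPKM, the 10 min mice 53.6, 21.1 and 14.9, and the 1 h mice 58.0, 31.5 and 24.9. At 6 h it stood at 231, 168 and 123 FPKM, at 24 h at 62.5, 44.7 and 146, and at 72 h at 54.3, 60.6 and 52.9. All AMI mice lay above all sham mice, also at 10 min, where mouse 1 was far above the other two. The mean at 6 h was 17.2-fold that of sham, with a log2 difference of 3.93 (SE 0.21, 95% interval 3.44 to 4.43, adjusted p = 0.00015). At 24 h and 72 h the mean was 8.36-fold and 5.53-fold that of sham (log2 difference 2.77, adjusted p = 0.00527, and 2.36, adjusted p = 1.19e-07). At 1 h it was 3.77-fold (1.73, SE 0.27, adjusted p = 0.0401), and at 10 min the difference of 1.27 (SE 0.39) had an adjusted p of 0.217. The 1 h call was lost without any 1 of the sham mice or without mouse 2 of 1 h, with adjusted p from 0.108 to 0.153, although the difference stayed between 1.39 and 1.98.

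The neutrophil markers and Cdkn1a were highest in the same mouse in 4 of the 6 groups. The mouse with the highest Cdkn1a at 10 min, 1 h, 6 h and 24 h was also the one with the highest neutrophil marker sum, namely 24.01 FPKM at 10 min, 30.13 at 1 h, 1002 at 6 h and 967.7 at 24 h. Among the remaining mice the order was the same at 10 min, with Cdkn1a at 21.1 and 14.9 FPKM beside sums of 8.398 and 5.49. It was also the same at 24 h, with 62.5 and 44.7 beside 210.5 and 42.89. At 6 h the order was the reverse, with Cdkn1a at 168 and 123 FPKM beside sums of 117.1 and 376.9. At 1 h it was reversed too, with 31.5 and 24.9 beside 16.65 and 20.01. In sham the order was fully reversed, with Cdkn1a at 10.3, 8.82 and 11.2 FPKM beside sums of 3.201, 5.004 and 2.317, and at 72 h the mouse with the highest sum had the lowest Cdkn1a (54.3, 60.6 and 52.9 beside 51.54, 61.35 and 62.04). All 6 neutrophil markers tested were called higher than sham at 6 h and 5 at 24 h and 72 h. Csf3r, Cxcr2, Retnlg and Mmp8 reached an FPKM of 1 only from 6 h on, so these calls were partly built in by the filter. In sham, at 6 h and at 24 h the mouse with the highest Cdkn1a also had the highest macrophage and lowest cardiomyocyte marker sums. In the other groups it did not have both. The part of these cell types in the level of Cdkn1a was not tested. Without mouse 1 of 6 h the difference from sham was 3.71, and without mouse 3 of 24 h it was 2.28, with adjusted p below 0.05 in each case. Cdkn1a lies on chromosome 17 at 29090976 to 29100727 of mm10, plus strand, and 7.7% of its exonic bases overlap a transcript of the opposite strand (AC167363.2), from which its reads cannot be told apart with a kit that does not mark strand.

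The 3 GADD45 genes encode small nuclear proteins that bind PCNA, CDK1 and the kinase MAP3K4, and they followed 3 different courses. Gadd45a, the member known as a p53 target, was 26.4, 23.6 and 24.1 FPKM in sham, 19.1, 21.5 and 29.1 at 10 min and 18.2, 20.9 and 23.4 at 1 h. The 6 h mice had 50.8, 35.0 and 37.7, the 24 h mice 18.1, 16.0 and 30.0 and the 72 h mice 15.4, 16.3 and 16.4. The 6 h mice lay above all sham mice and the 1 h and 72 h mice below them, while at 24 h mouse 3 alone lay above sham. The 1 h difference of -0.24 was not called by limma (adjusted p = 0.368). The log2 difference was 0.70 (SE 0.14, adjusted p = 0.0118) at 6 h, -0.25 (SE 0.22, adjusted p = 0.38) at 24 h and -0.59 (SE 0.069, adjusted p = 6.19e-05) at 72 h. Without mouse 3 of 24 h the 24 h difference was -0.51, with an adjusted p of 0.00678. Gadd45a lies on chromosome 6 at 67035096 to 67037457 of mm10, minus strand, and shares 19.1% of its exonic bases with E230016M11Rik on the opposite strand, which was listed at 0.089 to 0.377 FPKM.

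Gadd45b, which is also induced by NF-kappaB and TGF-beta signalling, was 11.1, 13.8 and 10.6 FPKM in sham and 13.6, 9.67 and 8.53 at 10 min. The 1 h mice had 21.3, 28.3 and 38.4, the 6 h mice 59.9, 27.1 and 28.2, the 24 h mice 14.3, 13.3 and 52.3 and the 72 h mice 31.4, 31.2 and 35.9. At 24 h only mouse 3 was far above the sham mice, and mouse 2 lay among them. The log2 difference from sham was 1.21 (SE 0.20, adjusted p = 0.0487) at 1 h, 1.53 (SE 0.29, adjusted p = 0.00966) at 6 h and 1.40 (SE 0.10, adjusted p = 3.85e-06) at 72 h. At 24 h it was 0.83, with a 95% interval of -0.30 to 1.96 and an adjusted p of 0.202. The 1 h call was lost without any 1 of the sham mice or without mouse 2 of 1 h (adjusted p 0.0932 to 0.187) and after either rescaling (0.0515 and 0.0663). Gadd45b lies on chromosome 10 at 80930073 to 80932204 of mm10, plus strand.

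Gadd45g, the member known from cytokine signalling, rose most of the family. Its FPKM was 16.0, 19.5 and 20.8 in sham, 21.4, 15.2 and 12.6 at 10 min and 60.6, 45.5 and 65.3 at 1 h. The 6 h mice had 208, 114 and 80.9, the 24 h mice 48.3, 68.5 and 119.6 and the 72 h mice 33.7, 41.3 and 41.3. From 1 h on every AMI mouse lay above every sham mouse, and the 6 h and 24 h mice overlapped. The mean was 3.05-fold that of sham at 1 h (log2 difference 1.55, SE 0.15, adjusted p = 0.00236), 7.15-fold at 6 h (2.67, SE 0.31, adjusted p = 0.0018), 4.2-fold at 24 h (1.92, adjusted p = 0.00651) and 2.07-fold at 72 h (1.01, adjusted p = 5.02e-05). Gadd45g lies on chromosome 13 at 51846678 to 51848468 of mm10, plus strand.

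Set side by side per transcript length, the family changed in its make-up. The summed FPKM of the 3 genes was 55.3 ± 1.70 (SD, n = 3) in sham and 107 ± 17.4 at 1 h, reached 214 ± 92.0 at 6 h, and was 127 ± 65.7 and 87.6 ± 6.54 at the last 2 times. Gadd45a held 44.7% ± 4.16 of the sum in sham and 46.6% ± 11.3 at 10 min, and 19.5% ± 2.18 at 1 h. Gadd45g held 33.9% ± 3.81 in sham, 53.3% ± 6.49 at 1 h, 61.7% ± 5.70 at 6 h and 63.1% ± 6.10 at 24 h. At 72 h the shares were 18.4% ± 0.839 for Gadd45a, 37.5% ± 2.09 for Gadd45b and 44.2% ± 2.33 for Gadd45g. The share of Gadd45a lay between 41.4% and 49.4% in the sham mice and between 14.9% and 25.7% in all mice from 1 h on, so these did not overlap.

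**Figure D3:**
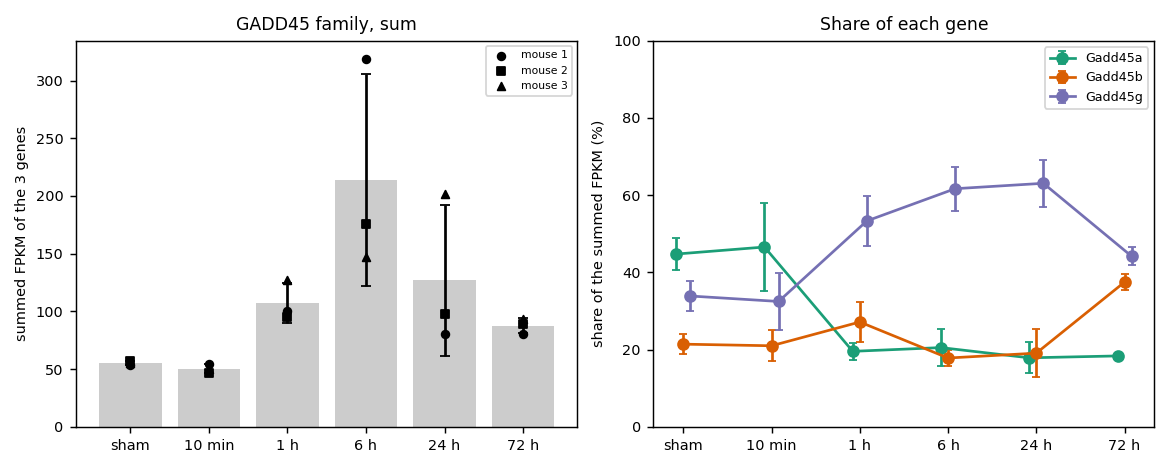
Left, the summed FPKM of Gadd45a, Gadd45b and Gadd45g in each mouse (points), with the mean (bars from 0) and SD (n = 3). Right, the share of each gene in that sum in percent (mean and SD), with Gadd45a at 44.7% in sham and 19.5% at 1 h and Gadd45g at 33.9% and 53.3%.

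Trp53 itself was late. It stood at 4.13, 3.05 and 4.47 FPKM in sham, 3.67, 4.07 and 3.33 at 10 min, 2.52, 2.49 and 2.98 at 1 h and 4.31, 4.32 and 4.21 at 6 h. It was 4.88, 6.76 and 8.21 at 24 h and 9.37, 10.6 and 9.29 at 72 h. The 1 h mice lay below all sham mice, with a log2 difference of -0.40 (SE 0.13) that was not called (adjusted p = 0.271), and the 24 h and 72 h mice lay above them. The difference was 0.63 (SE 0.19, adjusted p = 0.0408) at 24 h, a 1.7-fold level, and 1.15 (SE 0.12, adjusted p = 3.03e-05) at 72 h, a 2.51-fold level. The 24 h call was lost without any 1 of the sham mice or without mouse 2 or 3 of 24 h, at adjusted p between 0.0718 and 0.133, and after either rescaling (0.0623 and 0.0875). At 6 h, when Cdkn1a was highest, Trp53 differed from sham by 0.13, with a 95% interval of -0.18 to 0.43. These are RNA levels, and p53 is mainly controlled as a protein, which was not analysed here. Trp53 lies on chromosome 11 at 69580359 to 69591873 of mm10, plus strand.

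Phlda3, a target that restrains AKT at the membrane, was called higher at 24 h and 72 h, as Trp53 was. Its FPKM was 3.72, 3.64 and 4.66 in sham, lay between 3.66 and 4.80 in the 9 mice of 10 min, 1 h and 6 h, and was 7.11, 10.2 and 11.6 at 24 h and 17.2, 18.6 and 18.0 at 72 h. The 24 h and 72 h mice lay above all sham mice and did not overlap each other. The mean was 2.4-fold that of sham at 24 h (log2 difference 1.07, SE 0.18, adjusted p = 0.00745) and 4.47-fold at 72 h (1.92, SE 0.093, adjusted p = 3.16e-07). Phlda3 lies on chromosome 1 at 135766119 to 135769136 of mm10, plus strand.

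Trp53inp1, whose product takes part in p53-dependent cell death and autophagy, was called at 72 h alone. It stood at 7.72, 8.76 and 8.51 FPKM in sham, and its range was 6.83 to 8.76 at 10 min, 8.21 to 12.2 at 1 h, and 6.92 to 8.71 at 24 h. At 6 h it was 11.5, 8.83 and 12.8 FPKM and at 72 h 15.8, 16.3 and 20.8. The 6 h mice lay just above the sham mice and the 72 h mice well above them. The log2 difference was 0.36 (SE 0.14, adjusted p = 0.0893) at 6 h and 0.99 (SE 0.11, adjusted p = 3.96e-05) at 72 h, a 2.12-fold level. At 6 h it was called after either rescaling (adjusted p 0.0354 and 0.0478) and without mouse 2 of 6 h (0.0171). Trp53inp1 lies on chromosome 4 at 11156431 to 11174379 of mm10, plus strand.

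Mdm2, the ubiquitin ligase that limits p53, was the steadiest of the 10. Its 18 values lay between 2.67 and 4.08 FPKM, the lowest in a sham mouse and the highest in mouse 3 of 24 h. The log2 difference from sham was 0.06 at 10 min (95% interval -0.15 to 0.28), 0.01 at 1 h (-0.18 to 0.21), 0.07 at 6 h (-0.19 to 0.34) and 0.20 at 24 h (-0.07 to 0.47). All mice of 24 h, at 3.38 to 4.08 FPKM, and of 72 h, at 3.49, 3.58 and 3.77 FPKM, lay above the sham mice. The difference at 72 h of 0.20 (SE 0.087, 95% interval -0.0023 to 0.40) had an adjusted p of 0.066. That difference was below the 0.29 by which the median of all genes had moved, and it turned to -0.05 under median-of-ratios scaling and to -0.33 (adjusted p = 0.00597) under quantile normalization. Mdm2 lies on chromosome 10 at 117688875 to 117710758 of mm10, minus strand.

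Ccng1, the most abundant of the 10, encodes cyclin G1, a p53 target that recruits the phosphatase PP2A to MDM2. It was 201, 232 and 228 FPKM in sham, 252, 235 and 235 at 10 min, 259, 233 and 214 at 1 h and 158, 147 and 241 at 6 h. It was 175, 130.5 and 93.9 at 24 h and 144, 131 and 117 at 72 h. The 10 min mice lay above all sham mice, by a log2 difference of 0.13 that was not called by limma (adjusted p = 0.42). The 24 h and 72 h mice lay below all sham mice, and at 6 h mouse 3 lay above them. The log2 difference was -0.31 (SE 0.18, adjusted p = 0.23) at 6 h, -0.76 (SE 0.21, adjusted p = 0.03) at 24 h and -0.75 (SE 0.095, adjusted p = 0.000103) at 72 h. The mean at 72 h was 0.594 of that of sham, and the cardiomyocyte marker sum was 12930 to 15620 FPKM there against 30780 to 33120 in sham, the part of which in the level of Ccng1 was not tested. Without mouse 3 of 6 h the 6 h difference was -0.53 (adjusted p = 0.00911), and the 24 h call was lost without any 1 of the sham mice or without mouse 2 of 24 h (0.0656 to 0.0969). Ccng1 lies on chromosome 11 at 40748552 to 40755311 of mm10, minus strand.

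The spread within a group was not shared evenly among the mice. Mouse 1 of 6 h had the highest level of 7 of the 10 genes in its group, and mouse 3 of 24 h the highest of 9 of the 10, all but Ccng1. How many of all tested genes were highest in these 2 mice was not counted, so whether this is particular to the 10 is not known. These 2 mice had the highest neutrophil marker sums of their groups (1002 and 967.7 FPKM). They also had the highest macrophage sums (302.7 and 729.4) and the lowest cardiomyocyte sums (27060 and 22820). Endothelial markers (Pecam1, Cdh5, Kdr, Tie1 and Emcn) were highest in them too, with sums of 623.7 and 489.0. Fibroblast, smooth muscle and erythroid sums were highest in other mice of these groups. Cdkn1a, Mdm2, Gadd45a, Gadd45b, Gadd45g, Btg2 and Phlda3 were highest in both of these mice. The part of these cell types in the levels of the 10 genes was not tested. Leaving out mouse 1 of 6 h left all 5 calls at 6 h, and leaving out mouse 3 of 24 h moved the calls at 24 h to 4 higher and 2 lower. At 72 h the SD of Cdkn1a was 4.11 FPKM, against 54.1 at 6 h and 54.3 at 24 h.

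The wider p53 pathway was described with 7 lists of named genes, whose counts stand beside the shares of all tested genes called higher and lower (at 6 h 11.6% higher and 16.8% lower, at 24 h 26.2% higher and 11.4% lower, at 72 h 53.1% higher and 24.2% lower). At 10 min and 1 h no gene of these lists was called in either direction by limma, and at an unadjusted p under 0.05 7 and 8 of the 75 tested genes were higher and 2 and 2 lower, beside 8.7% and 5.52% higher and 6% and 7.06% lower of all genes. Of 12 tested cell death targets 4 were higher and 1 lower at 6 h, 6 were higher at 24 h, and at 72 h 8 were higher and 1 was lower, the last beside 53.1% and 24.2% of all genes. At 6 h the death receptors Tnfrsf10b (log2 difference 1.03) and Fas (1.00) and the nuclease Aen (0.25) were higher, and Siva1 (-0.53) was lower. At 24 h Bax (1.21), Tnfrsf10b (0.85) and Zmat3 (0.80) led. At 72 h Apaf1 (1.75), Pmaip1 (1.73) and Bax (1.56) led, which act in the mitochondrial route of apoptosis, and Perp (-0.73), a membrane protein of cell junctions, was lower. Pmaip1 reached an FPKM of 1 only in mice of 24 h and 72 h, so its call was partly built in by the filter. The median log2 difference of this list was 0.23, 0.48 and 0.76 at the 3 times, beside -0.083, 0.13 and 0.29 for all genes, and after median-of-ratios scaling its counts at 72 h were 7 higher and 4 lower.

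Of 11 tested targets of repair and metabolism, 3 were higher and 2 lower at 6 h, 2 higher and 1 lower at 24 h, and 5 higher and 4 lower at 72 h. Higher calls were thus 2 of 11 at 24 h beside 26.2% of all genes and 5 of 11 at 72 h beside 53.1%, and the 4 lower at 72 h stood beside 24.2%. The polo-like kinase Plk3 was higher at 6 h (1.44), 24 h (1.57) and 72 h (1.47), and Sesn2, a stress-responsive inhibitor of mTORC1, by 0.55, 0.74 and 0.83. Sesn2 reached an FPKM of 1 only in mice of these 3 times, so its calls were partly built in by the filter. Plk2 was higher at 6 h (0.65) and the mitochondrial reductase Fdxr at 72 h (0.91). Tigar, a fructose bisphosphatase, was lower at 6 h (-0.61) and 72 h (-1.26), Xpc at 6 h (-0.31), Rrm2b at 24 h (-0.43) and 72 h (-0.69), and Sesn1 at 72 h (-0.73). Sesn1 and Sesn2 are paralogs, and at 72 h they lay on opposite sides of sham.

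Of 16 tested regulators of p53, 1 was higher and 4 lower at 6 h, 1 was higher at 24 h and 8 were higher at 72 h, where median-of-ratios scaling left 3 higher and 1 lower and quantile normalization 3 higher and 6 lower. The 8 of 16 at 72 h were close to the 53.1% of all genes, and the 1 of 16 at 24 h was below 26.2%. The damage kinases Chek2 (-0.93), Atr (-0.41) and Atm (-0.41) were lower and the deacetylase Sirt1 (0.47) higher at 6 h. At 24 h the kinase Hipk2 was higher by 0.86. At 72 h Cdkn2a (1.30), Chek1 (1.29) and Chek2 (0.72) led. Cdkn2a and Chek1 reached an FPKM of 1 only in the 72 h mice, so their higher level there was partly built in by the filter. Their mean FPKM was 0.0184 and 0.137 in sham and 1.53 and 1.79 at 72 h. Chek2 thus lay below sham at 6 h and above it at 72 h.

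Of the 6 other CDK inhibitors, 1 was higher and 1 lower at 6 h and at 24 h, and 4 were higher and 1 lower at 72 h, beside 53.1% and 24.2% of all genes. Cdkn1c, the paralog of p21 known as p57, was lower at these 3 times, with log2 differences of -0.81, -1.35 and -1.90 at 6 h, 24 h and 72 h, beside 3.93, 2.77 and 2.36 for Cdkn1a. Cdkn2d was higher by 0.44 at 6 h and 0.42 at 24 h, and Cdkn2b (1.64), Cdkn2c (1.55) and Cdkn2a (1.30) were higher at 72 h. Of these Cdkn2a passed the filter only through the 72 h mice, and Cdkn2b only through those and mouse 3 of 24 h. Among 7 tested relatives of the 10 genes, 3 were higher at 6 h, 2 at 24 h (26.2% of all genes), and 3 were higher and 3 lower at 72 h (53.1% and 24.2%). Btg1, a relative of Btg2, was higher by 1.51, 1.68 and 1.84 at the 3 times, and Btg3 by 0.53, 0.54 and 0.36. Phlda1 was higher at 6 h (1.33) and the cyclin Ccng2 at 72 h (0.80), the opposite side to Ccng1. Trp53inp2 (-0.78), Tob2 (-0.65) and Tob1 (-0.53) were lower at 72 h.

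Of the 10 partners of the GADD45 proteins, 1 was higher and 2 lower at 6 h, 3 higher and 2 lower at 24 h, and 3 higher and 1 lower at 72 h, and median-of-ratios scaling moved the last of these to 3 and 6. The counts at 6 h and 24 h were near the shares of all genes (11.6% and 16.8%, 26.2% and 11.4%), and the 3 of 10 higher at 72 h were below 53.1%. Map3k4, the kinase that GADD45 proteins activate, was lower, with log2 differences of -0.75 at 6 h, -0.40 at 24 h and -0.78 at 72 h. Map2k3 was higher at 6 h (0.80) and 24 h (0.62) and Map2k6 lower (-0.56 and -0.49), and Map2k4 was higher by 0.31 at 24 h. Pcna was higher at 24 h (0.67) and 72 h (1.59), and at 72 h Ccnb1 (3.94) and Cdk1 (3.70) were higher. None of the 17 proliferation genes was called at 6 h by limma (1 was lower at an unadjusted p under 0.05), 3 were higher at 24 h, with Mcm5 (1.36), Mcm2 (0.67) and Pcna (0.67), and 17 were higher at 72 h (53.1% of all genes), led by Top2a (4.65), Ccnb2 (4.51) and Mki67 (4.46). Ccnb1, Ccnb2, Bub1, Plk1 and Ccne2 reached an FPKM of 1 only in the 72 h mice. Mki67, Top2a, Ccna2, Cdk1, Rrm2, Aurka and Aurkb reached it only in those mice and in mouse 2 of 24 h. These genes, most of the 17, were thus tested through the late mice where they are high, and the count of 17 at 72 h was largely built in by the filter. The summed FPKM of the 17 was 32.01 to 42.62 in sham and 249.1 to 330.8 at 72 h, when Cdkn1a was 5.53-fold and Btg2 1.65-fold above sham. Pcna, Cdk1, Ccnb1 and Cdkn2a each stand in 2 of the lists. Leaving out 1 mouse moved these counts at 6 h and 24 h, for example the cell death targets called higher at 24 h to between 2 and 7, and at 72 h the same count stayed at 8.

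**Figure D4:**
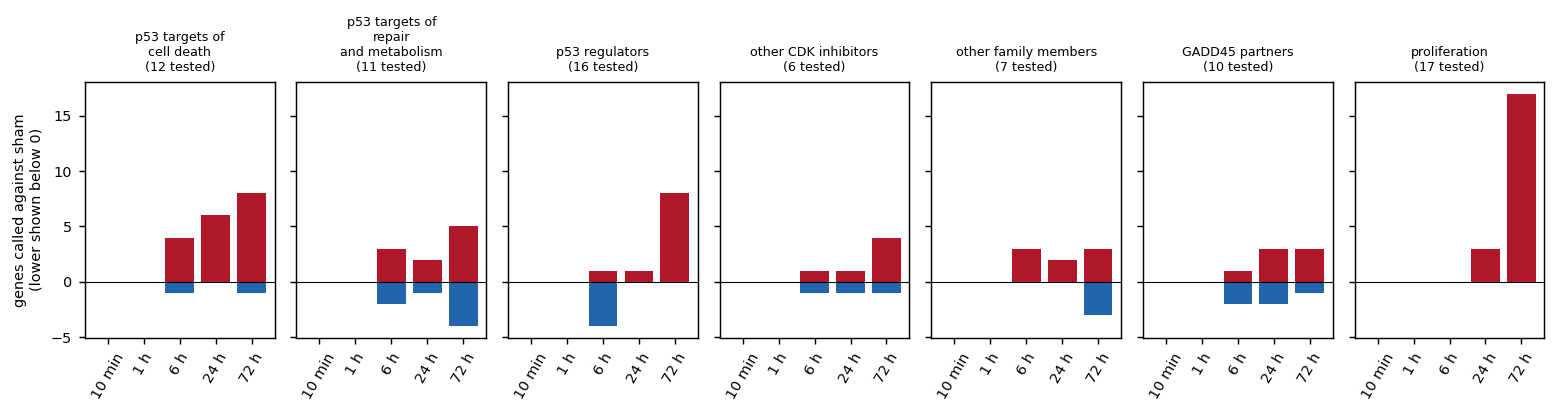
Number of genes of each list called higher (red, above 0) or lower (blue, below 0) than sham at each time by limma at an adjusted p under 0.05, with the number tested in brackets. No gene of the lists was called at 10 min or 1 h, and all 17 proliferation genes were called higher at 72 h. Most of these 17, and Cdkn2a, Chek1, Pmaip1 and Cdkn2b, passed the filter only through mice of 24 h or 72 h.

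Genes whose pattern over the 18 mice was most like that of each of the 10 were found by Pearson's r of log2(FPKM + 1), leaving out symbols of predicted genes. These r are a description, since mice of 1 group share their time after ligation. Phlda3 was nearest to Hdac1 (0.992), Tspo (0.991) and Bin1 (0.991), and Trp53 to Tgfb1i1 (0.982), Nxt1 (0.975) and Cdca4 (0.974). Btg2 was nearest to the immediate early genes Apold1 (0.979), Zfp36 (0.973) and Sik1 (0.959). Gadd45g was nearest to Maff (0.951), Cxcl1 (0.941) and Ppp1r15a (0.941), and Gadd45b to Nfkbiz (0.918), Socs3 (0.894) and Pim1 (0.882). For Cdkn1a they were Fosl2 (0.937), Cebpd (0.933) and the neutrophil marker S100a9 (0.932). Gadd45a was nearest to Slc1a1 (0.906), Ccl11 (0.901) and Tshz1 (0.882). Ccng1 was nearest to Ptgr2 (0.978), Cux2 (0.965) and Fsd2 (0.962), Trp53inp1 to Lonrf3 (0.925), Mgp (0.907) and Serpina3g (0.901), and Mdm2 to Ing5 (0.906), N4bp1 (0.902) and Msl2 (0.893). The 10 genes therefore did not share 1 nearest gene, and none had another of the 10 among its 3 nearest. Some of the 10 were still alike, with r highest for Trp53 and Phlda3 (0.944), then Cdkn1a and Gadd45g (0.86) and Gadd45b and Gadd45g (0.81). The lowest r was that of Trp53 and Ccng1 (-0.845).

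Which genes changed between successive times was tested on the mice of both times. From 10 min to 1 h 2 of the 10 changed (background 0.602%), Gadd45g and Btg2, both higher. From 1 h to 6 h 4 changed (20.5%), Trp53, Cdkn1a, Gadd45a and Gadd45g, all higher. From 6 h to 24 h 3 changed (14.4%), with Phlda3 higher and Gadd45a and Btg2 lower. None of these 3 calls was left without any 1 of the 6 h mice or without mouse 2 of 24 h, where the share of all genes called was 1.71%, 0.015%, 0.015% and 0.24%, and without mouse 1 of 24 h only Phlda3 was left of the 3. From 24 h to 72 h 5 changed (43.2%), with Trp53, Trp53inp1 and Phlda3 higher and Gadd45g and Btg2 lower. Cdkn1a at 24 h was 0.486 of its mean at 6 h, with a log2 difference of -1.17 (95% interval -2.16 to -0.18, adjusted p = 0.0947), and without mouse 3 of 24 h it was -1.65 (adjusted p = 0.023).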

How the data were processed

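RNA from the hearts of 18 mice was sequenced, 3 in each of 6 groups taken from the sample titles. Trimming with cutadapt 1.18, mapping to mm10 with HISAT2 2.1.0 and quantification with StringTie 1.3.4d were done by the authors, and the deposited values are FPKM per gene symbol (versions from the submitters' processing notes). The annotation they used is not given in the sources used here. The library kit does not mark strand. Some column headings were mistyped and were matched to the sample titles.

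FPKM were used as deposited. Genes that reached an FPKM of 1 in any mouse were tested on log2(FPKM + 1), so fold changes of low genes are understated, with limma 3.58.1 in R 4.3.3 (lmFit, eBayes with a variance trend), two-sided, on the 6 mice of each comparison, with p-values adjusted by Benjamini-Hochberg across the tested genes. A fold is a ratio of mean FPKM. The steps were tested on simulated data. Levels, motifs and plots were computed with Python 3.11.15, numpy 2.4.6, pandas 2.3.3 and matplotlib 3.10.9, and gene positions are those of GENCODE M21. The table holds no counts, so read depth is unknown and precision comes from the spread between mice.

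The 10 genes and the lists of pathway genes and markers were chosen with earlier results of these data known. Of each pathway list the 3 largest rises and 3 largest falls among called genes were named at 6 h, 24 h and 72 h, and for each of the 10 genes the 3 most alike genes. Alternatives were all 18 mice in 1 fit, quantile normalization, median-of-ratios scaling, a pseudocount of 0.1, testing without a filter or with one on the mean FPKM, the replicate number as a block, no variance trend, and each mouse left out.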

Additional observations from a re-analysis of the deposited data

Results flagged for a closer look

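Between successive times the difference of 2 groups was tested by limma on the 6 mice of both times, which is also the difference of their effects against sham, and 14 such differences passed an adjusted p of 0.05. In time order, the shares of all tested genes that passed were 0.602%, 20.5%, 14.4% and 43.2%. From 10 min to 1 h they were Gadd45g (log2 difference 1.76, adjusted p = 0.011) and Btg2 (2.09, adjusted p = 0.000559). From 1 h to 6 h they were Cdkn1a (2.20, adjusted p = 0.0067), Gadd45g (1.12, adjusted p = 0.0448), Gadd45a (0.94, adjusted p = 0.00915) and Trp53 (0.53, adjusted p = 0.0137). In each of these 6 all 3 mice of the later time lay above all 3 of the earlier time. Of all tested genes 6.19% did so from 10 min to 1 h and 17.8% from 1 h to 6 h.

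From 6 h to 24 h Phlda3 rose by 0.98 on the log2 scale (adjusted p = 0.0224), while Btg2 (-1.10, adjusted p = 0.0484) and Gadd45a (-0.95, adjusted p = 0.0444) fell. These 3 differences lost their call without any 1 of the 6 h mice or without mouse 2 of 24 h, at adjusted p from 0.059 to 0.132. From 24 h to 72 h Trp53inp1 rose by 1.04 (adjusted p = 0.00118), Phlda3 by 0.85 (adjusted p = 0.00545) and Trp53 by 0.52 (adjusted p = 0.0421), while Gadd45g (-0.91, adjusted p = 0.042) and Btg2 (-0.69, adjusted p = 0.0391) fell. No mice overlapped in these 8 differences either, which was common among all tested genes. From 6 h to 24 h 36.2% of them were higher without overlap and 7% lower, and from 24 h to 72 h 37.3% and 19.1%. Neutrophil markers summed to 42.89 to 967.7 FPKM at 24 h and 51.54 to 62.04 at 72 h, and their part in these differences was not tested.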

How the results depend on the processing

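With 3 mice a group, many calls were lost when 1 mouse was left out, several of them whichever sham mouse it was. Those at 72 h against sham were not lost. Leaving out each mouse in turn, the number of the 10 genes called higher than sham ranged from 0 to 1 at 10 min, 2 to 4 at 1 h, 5 to 6 at 6 h, 4 to 5 at 24 h and 7 to 7 at 72 h. Those called lower ranged from 0 to 0 at 10 min and 1 h, 0 to 1 at 6 h, 0 to 2 at 24 h and 2 to 2 at 72 h. Those changed between successive times ranged from 2 to 3 (10 min to 1 h), 2 to 5 (1 h to 6 h), 0 to 4 (6 h to 24 h) and 2 to 6 (24 h to 72 h). From 1 h to 6 h, 2 were left without mouse 1 or mouse 2 of 1 h. From 6 h to 24 h, 0 were left without any 1 of the 6 h mice or without mouse 2 of 24 h. From 24 h to 72 h, 2 were left without mouse 2 of 24 h or without any 1 of the 72 h mice.

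The 1 gene called at 10 min was lost (0 left) with no filter, median-of-ratios scaling, all 18 mice in 1 fit or no variance trend, and the 4 called at 1 h became 2 with no filter, all 18 mice in 1 fit or no variance trend. With no filter the 1 gene lower at 24 h became 0, the 3 changed from 6 h to 24 h became 1, and the 5 changed from 24 h to 72 h became 2. More genes were tested without the filter. All 18 mice in 1 fit gave 6 changes from 6 h to 24 h. The cause of the other moves was not tested. The replicate numbers did not pair the mice, since 4 of 27 same-numbered pairs had deviations that correlated above 0.1 (range -0.33 to 0.41) and 5 of 18 mice were closest to their own number. With the replicate number as a block the counts became 0 at 10 min, 2 at 1 h and 0 from 6 h to 24 h. Of all genes, 14.4% were called from 6 h to 24 h, 0.0075% with the block and 43.9% with all 18 mice in 1 fit.

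None of the differences whose sign turned had been called. Mdm2 turned to -0.021 against sham at 24 h under quantile normalization, to -0.047 and -0.33 at 72 h under median-of-ratios and quantile scaling (limma, adjusted p = 0.614 and 0.00597), and to -0.069 and -0.14 at 24 h against 6 h. Ccng1 turned to 0.0038 at 1 h against 10 min and to -0.14 at 72 h against 24 h under median-of-ratios scaling. With 1 mouse left out, the differences from sham that crossed 0 at 10 min ranged from -0.18 to 0.037 for Trp53, -0.0026 to 0.12 for Mdm2, -0.27 to 0.021 for Gadd45a and -0.12 to 0.042 for Trp53inp1. At 1 h they ranged from -0.055 to 0.046 for Mdm2 and -0.044 to 0.10 for Phlda3, at 6 h from -0.0037 to 0.21 for Trp53, and at 24 h from -0.11 to 0.036 for Trp53inp1. Between successive times they ranged from -0.11 to 0.030 for Ccng1 and -0.26 to 0.030 for Gadd45a (1 h against 10 min), -0.044 to 0.53 for Gadd45b and -0.016 to 0.25 for Trp53inp1 (6 h against 1 h), and -0.77 to 0.078 for Cdkn1a, -0.040 to 0.068 for Mdm2 and -0.21 to 0.24 for Ccng1 (72 h against 24 h).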
